A study of Mus musculus with 32 samples.

Results

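Glutathione and selenium redox genes were followed in mouse prefrontal cortex, in lines selected for severe or mild withdrawal from ethanol. The genes were found by the titles of the array spots, which had to hold glutathione, gamma-glutamyltransferase, gamma-glutamyltranspeptidase, selenocysteine lyase, thioredoxin, peroxiredoxin or superoxide dismutase. Of 4696 gene spots, 6 were such genes, each with 1 spot: selenocysteine lyase (Scly), gamma-glutamyl transpeptidase (Ggt1), microsomal glutathione S-transferase (Mgst1), glutathione transferase zeta 1 (Gstz1), glutathione S-transferase theta 2 (Gstt2) and mitochondrial thioredoxin (Txn2). Ggt1 was taken although its title writes the enzyme with a space, because it was named among the genes to describe. There were 0 titles with peroxiredoxin and 0 with superoxide dismutase, and 4 expressed sequence tags that only resemble glutathione enzymes were left out.

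Mice came from stocks prone (WSP) or resistant (WSR) to withdrawal seizures, selected from heterogeneous HS/Ibg mice, and each selection was carried out in separate breeding lines (WSP-1, WSP-2, WSR-1 and WSR-2). Adult mice of both sexes either breathed ethanol vapor for 72 h after an ethanol injection of 1.5 g/kg (a somewhat higher dose in WSP-2) or stayed in air without that injection. Controls and ethanol mice alike received pyrazole at 68.1 mg/kg, which blocks alcohol dehydrogenase, and all tissue was taken after 21 days of abstinence. The 8 groups of sex, selection and treatment held 4 arrays each, 32 in all, and each array carried RNA pooled from 2 mice. Within a group, replicates 1 and 2 came from the first breeding line and replicates 3 and 4 from the second. The p-values measure the spread between such pools, and the number of arrays limits their precision. Each selection was represented by 2 breeding lines, and the p-values take pools, not lines, as replicates. Comparisons of the selections therefore cannot tell selection from other differences between those lines.

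Glutathione is a tripeptide that keeps proteins reduced and is joined to reactive compounds by glutathione S-transferases. Ggt1 sits on the outer cell membrane and starts the breakdown of extracellular glutathione, so that its amino acids can be taken up again, and in brain it is a well-known enzyme of capillaries. Scly frees selenium from selenocysteine for reuse in selenoproteins, among them glutathione peroxidases and thioredoxin reductases. In liver, ethanol metabolism is a known source of oxidative stress.

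Array brightness has to be read beside every line, sex and ethanol difference below. Gene spots at 2 times background or more numbered 1682 to 2040 on male WSR arrays, 518 to 604 on male WSP arrays, 588 to 1428 on female WSP arrays and 783 to 1095 on female WSR arrays. Brightness and line therefore cannot be told apart in males, nor brightness and sex in WSR. In female WSR the count was 783 to 922 on air arrays and 940 to 1095 on ethanol arrays. Brightness and treatment therefore cannot be told apart in that group. Of 10 spots that mark blood, vessels, choroid plexus, neurons or glia, 8 passed the filter described next, among them the neuronal gene synapsin I and the astrocyte gene glutamine synthetase. Pooled tissue cannot tell fewer cells of a type from less RNA per cell.

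A spot counted as measured when its intensity was at least 2 times the array background on at least 4 arrays, which held for 2084 gene spots. Of the 6 redox genes, 3 were measured. Scly reached 2 times background on 32 of 32 arrays, Ggt1 on 21 and Mgst1 on 13, of which 8 were the male WSR arrays. The intensity of Txn2, the thioredoxin of mitochondria, ran from 0.749 to 3.19 times background with a median of 1.06 and passed 2 on 1 array. Gstz1, which also isomerizes maleylacetoacetate in tyrosine breakdown, ran from 0.752 to 2.49 with a median of 0.950 and passed 2 on 1 array. Gstt2, a theta class transferase, ran from 0.712 to 1.24 and passed 2 on 0 arrays. The single high array of Txn2 and of Gstz1 was the same one, Female WSR Air replicate 1, and around the Txn2 spot 8 of 8 neighbouring spots also passed 2 times background there, as did 5 of 8 around Gstz1. Levels of these 3 genes were not detectable on the other arrays and are compared no further.

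**Figure D1:**
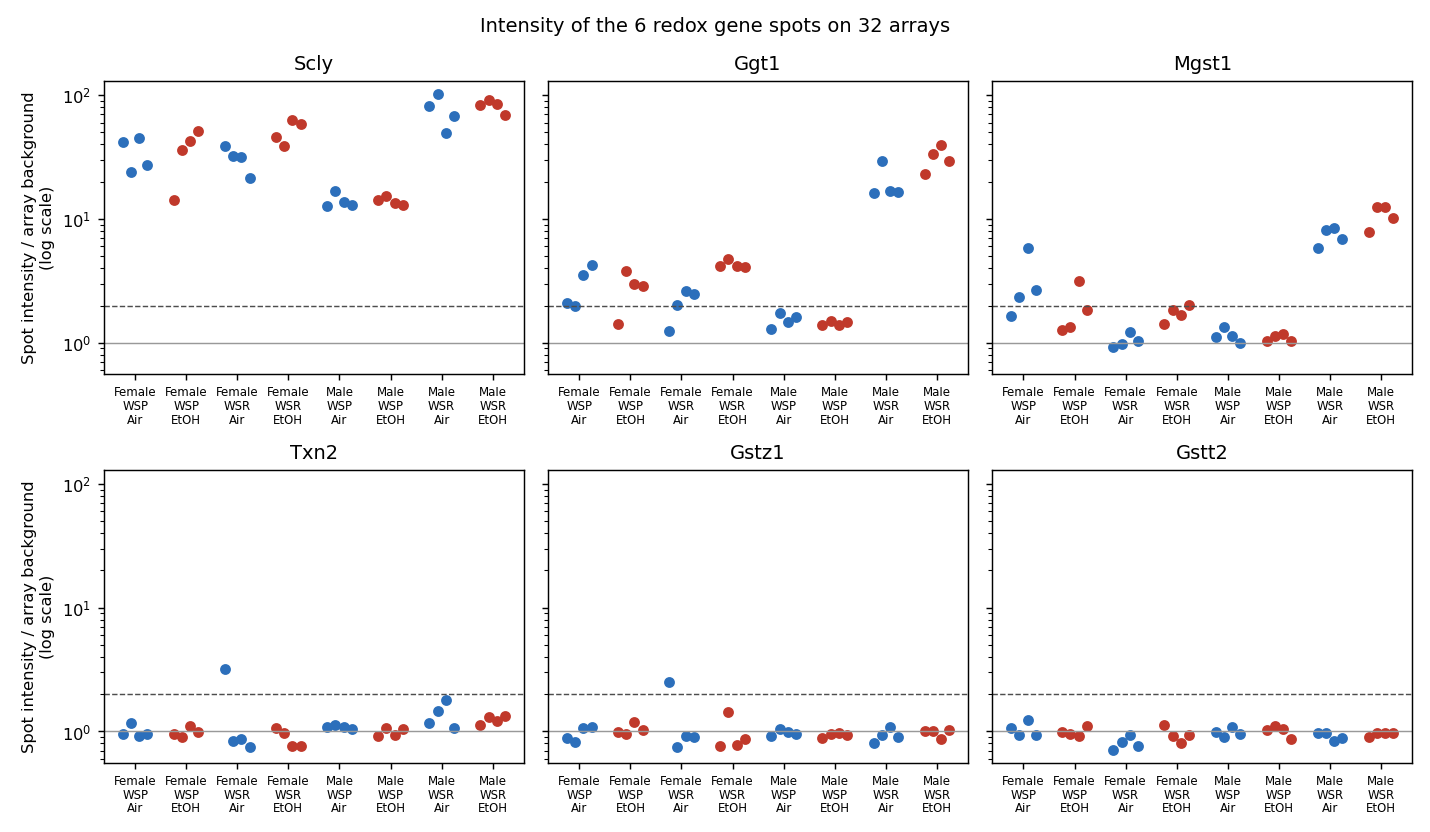
Spot intensity divided by array background (log scale) for the 6 redox genes. Each point is 1 array, blue in air and red after ethanol, grouped by sex and selection; the solid line marks background and the dashed line 2 times background. Scly lies above the dashed line on all 32 arrays, Ggt1 and Mgst1 are high on male WSR arrays, and Txn2, Gstz1 and Gstt2 stay near background apart from 1 array.

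Promoter letters are shown because textbook targets of the oxidative stress factor Nrf2 carry an antioxidant response element, whose core reads TGACNNNGC. The RefSeq promoter table (GRCm38.p6) held 5 of the 6 genes in 10 windows, each running from 250 bases before to 50 bases after an annotated start. The core was found on either strand in 4 of these 10 windows, namely 3 of the 4 of Ggt1 and 1 of the 2 of Mgst1, against 12.4% of all 32851 windows of 300 bases. A gene with several starts has several windows, and no share by gene was counted. The 4 of 10 therefore cannot be read as an excess among these genes. The first window listed is printed for each measured gene, with the core in capitals.
Ggt1, chr10:75563882-75564181, plus strand: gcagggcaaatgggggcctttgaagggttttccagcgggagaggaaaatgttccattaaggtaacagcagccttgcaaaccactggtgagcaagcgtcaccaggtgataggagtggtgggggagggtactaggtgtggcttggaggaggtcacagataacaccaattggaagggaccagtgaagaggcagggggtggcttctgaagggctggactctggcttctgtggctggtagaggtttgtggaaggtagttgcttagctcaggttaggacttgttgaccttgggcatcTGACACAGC
Mgst1, chr6:138140277-138140576, plus strand: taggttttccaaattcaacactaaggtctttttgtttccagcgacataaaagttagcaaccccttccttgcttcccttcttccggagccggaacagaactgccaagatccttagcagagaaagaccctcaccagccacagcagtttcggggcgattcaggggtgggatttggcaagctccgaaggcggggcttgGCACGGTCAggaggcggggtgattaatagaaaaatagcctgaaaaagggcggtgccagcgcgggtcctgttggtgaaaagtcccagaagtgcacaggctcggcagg
Scly, chr1:91298088-91298387, plus strand: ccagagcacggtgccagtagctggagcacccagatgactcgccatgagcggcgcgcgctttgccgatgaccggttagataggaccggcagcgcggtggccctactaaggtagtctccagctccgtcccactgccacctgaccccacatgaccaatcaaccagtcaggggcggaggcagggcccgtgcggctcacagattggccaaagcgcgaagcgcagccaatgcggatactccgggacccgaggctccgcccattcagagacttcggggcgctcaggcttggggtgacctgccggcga
The core stands at the last bases of the Ggt1 window, after the annotated start, and on the opposite strand in the Mgst1 window. No window of Scly held it. These are matches of letters and not sites of binding. The spot titled nuclear factor erythroid derived 2 like 2, which is Nrf2 itself, passed 2 times background on 0 arrays.

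Scly, the selenium-recycling enzyme, was at least 12.7 times background on every array. In female WSP it lay at 41.9, 24.0, 45.1 and 27.2 times background in air and at 14.3, 36.2, 42.8 and 51.2 after ethanol, in the order of replicates 1 to 4. In female WSR it lay at 38.8, 32.0, 31.9 and 21.5 in air and at 46.2, 39.0, 62.8 and 58.2 after ethanol. The ethanol array of female WSP replicate 1 was the dimmest of the female arrays for this gene. In female WSR every ethanol array was above every air array on this scale, but the ethanol arrays also held more detected spots. In male WSP the spot lay at 12.7, 16.8, 13.8 and 12.9 in air and at 14.1, 15.4, 13.5 and 13.1 after ethanol. In male WSR it lay at 81.4, 102, 49.1 and 68.4 in air and at 83.3, 92.0, 84.1 and 69.0 after ethanol. Male arrays of the lines did not overlap. Within its own array, however, Scly ranked between the 92.6th and the 97.1st percentile of gene spots on all 32 arrays.

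Quantile normalization puts every array on the same distribution, so it follows that rank more than the raw brightness. Normalized log2 intensities of Scly were 8.94, 8.59, 8.38 and 8.26 in Female WSP Air and 9.24, 9.12, 8.93 and 9.23 in Female WSP EtOH. The means were 8.54 ± 0.30 in air and 9.13 ± 0.14 after ethanol (SD, n = 4 each). All 4 ethanol arrays lay above the air mean, while air replicate 1, at 8.94, overlapped the lowest ethanol array. The other group means were 9.05 ± 0.18 and 9.20 ± 0.12 in male WSP, 8.99 ± 0.15 and 8.91 ± 0.30 in female WSR, and 8.62 ± 0.32 and 8.41 ± 0.09 in male WSR, for air and ethanol in turn. Male WSP EtOH was highest and Male WSR EtOH lowest, and neighbours in the order of the 8 means overlapped in range throughout.

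Ggt1 was dim outside male WSR. In female WSP it lay at 2.11, 1.99, 3.52 and 4.25 times background in air and at 1.41, 3.79, 2.99 and 2.85 after ethanol. In female WSR it lay at 1.25, 2.03, 2.64 and 2.50 in air and at 4.15, 4.77, 4.15 and 4.11 after ethanol. The 4 ethanol arrays of female WSR were all above the 4 air arrays, and they also held more spots at 2 times background. In male WSP the spot ran from 1.29 to 1.7 on the 8 arrays and was not well above background on any of them. In male WSR it lay at 16.1, 29.2, 16.7 and 16.4 in air and at 23.2, 33.8, 39.3 and 29.2 after ethanol, so that male WSR arrays stood above all others. The normalized group means were 6.36 ± 0.13 and 6.57 ± 0.29 in female WSP, 6.49 ± 0.29 and 6.53 ± 0.14 in male WSP, 6.36 ± 0.29 and 6.84 ± 0.09 in female WSR, and 6.76 ± 0.11 and 6.92 ± 0.14 in male WSR, for air and ethanol in turn (SD, n = 4 each). Their order ran from Male WSR EtOH to Female WSP Air, and neighbours overlapped in range.

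Mgst1, a membrane enzyme that conjugates glutathione and also reduces lipid peroxides, reached 2 times background on 5 of the 16 female arrays. In female WSP it lay at 1.65, 2.36, 5.86 and 2.68 times background in air and at 1.26, 1.35, 3.18 and 1.85 after ethanol. In female WSR it lay at 0.925, 0.984, 1.21 and 1.03 in air and at 1.41, 1.84, 1.69 and 2.01 after ethanol. Replicate 3, from WSP-2, was the highest of both female WSP groups, and no air array of female WSR was well above background. In male WSP the spot ran from 1.00 to 1.35 on 8 arrays, none of them well above background. In male WSR it lay at 5.85, 8.21, 8.43 and 6.84 in air and at 7.89, 12.5, 12.6 and 10.2 after ethanol. The normalized group means were 6.36 ± 0.28 and 6.18 ± 0.31 in female WSP, 5.93 ± 0.17 and 5.87 ± 0.11 in male WSP, 5.84 ± 0.07 and 6.05 ± 0.06 in female WSR, and 6.32 ± 0.02 and 6.37 ± 0.07 in male WSR, for air and ethanol in turn. The groups fell in order from Male WSR EtOH to Female WSR Air, again with overlapping neighbours.

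**Figure D2:**
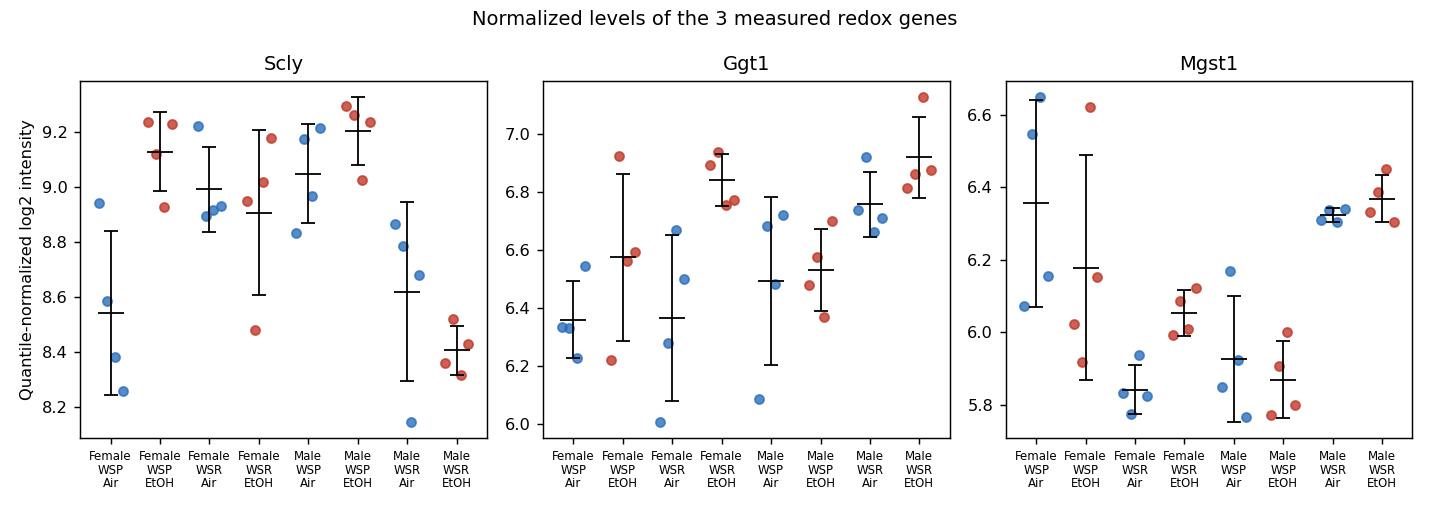
Quantile-normalized log2 intensity of Scly, Ggt1 and Mgst1 by group. Points are single arrays (blue air, red ethanol), and black bars give the group mean ± SD (n = 4). Scly is lowest in Male WSR EtOH at 8.41, Ggt1 is highest there at 6.92, and Mgst1 is 5.84 in Female WSR Air against 6.36 in Female WSP Air.

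Whether abstinence after ethanol left a trace in these genes was asked in each group of sex and selection. Limma called 0 of the 3 measured genes in female WSP, where 0.384% of all probes were called, 0 in male WSP (0.048% of all probes), 0 in female WSR (0.048%) and 0 in male WSR (0.0%). At an unadjusted p under 0.05 there was 1 gene in female WSP, 1 in female WSR and 0 in each male group. The shares of all probes given here and below are for adjusted p, so such unadjusted counts cannot be set against them. In female WSP, Scly had a log2 difference of 0.59 ± 0.15 (SE), with a 95% interval from 0.27 to 0.90 and an adjusted p of 0.097. This difference passed with cyclic loess (0.61, adjusted p = 0.0499) and in the authors' deposited scores, where it was 1.11 score units (adjusted p = 0.027). Those scores were scaled array by array. A log2 unit of intensity made 1.24 to 2.01 score units on Female WSP EtOH arrays and 1.10 to 1.36 on Female WSP Air arrays. The part of this scaling in the score difference was not tested. Under median scaling the Scly difference was -0.14, where the median of all probes lay at -0.12. Without ethanol replicate 1, the dimmest female array for this gene, median scaling gave 0.24 (adjusted p = 0.72) and quantile normalization 0.55 (adjusted p = 0.10). The direction under median scaling therefore turned with that 1 array. With all arrays, the raw geometric mean intensity of Scly in female WSP after ethanol was 0.842 times that in air. Spots at 2 times background or more numbered 857 to 1428 on Female WSP Air arrays and 588 to 1028 on Female WSP EtOH arrays. The part of brightness in the Scly difference was not tested.

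Ggt1 had its widest ethanol difference in female WSR, at 0.48 ± 0.14 (SE, 95% interval 0.18 to 0.77, adjusted p = 0.27), where the ranges of ethanol and air arrays did not overlap and 4 of 4 ethanol arrays lay above the air mean. The female WSR ethanol arrays also held more detected spots than the air arrays, so treatment and brightness cannot be told apart there. In female WSP Ggt1 had 0.22, in male WSP 0.04 and in male WSR 0.16. Over all groups the difference was 0.22 ± 0.071 (95% interval 0.08 to 0.37, adjusted p = 0.86), and 13 of 16 ethanol arrays exceeded the mean of their own air group, with 0.0% of all probes called. The unadjusted p of Ggt1 in that comparison was 0.0040, and it was the 1 redox gene under 0.05 there. Under median scaling Ggt1 had -0.066 in female WSP (0.026 without ethanol replicate 1) and -0.028 in male WSP, and its raw geometric mean intensity after ethanol was 0.794 and 0.916 times that in air in these groups. The direction in WSP therefore depends on the scaling, and in male WSP the spot was not well above background.

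Mgst1 had an ethanol difference of -0.18 in female WSP and 0.21 in female WSR, with adjusted p-values of 0.60 and 0.45. In female WSR the ethanol and air ranges did not overlap, from 5.99 to 6.12 against 5.77 to 5.94, although 1 of these 8 arrays was above 2 times background. As for Ggt1, treatment and brightness cannot be told apart in this group. In males the differences were -0.06 in WSP and 0.05 in WSR. The median of the 3 genes was 0.22 in female WSP, 0.04 in male WSP, 0.21 in female WSR and 0.05 in male WSR, against medians of all probes of -0.0049, -0.0031, 0.05 and 0.0056.

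**Figure D3:**
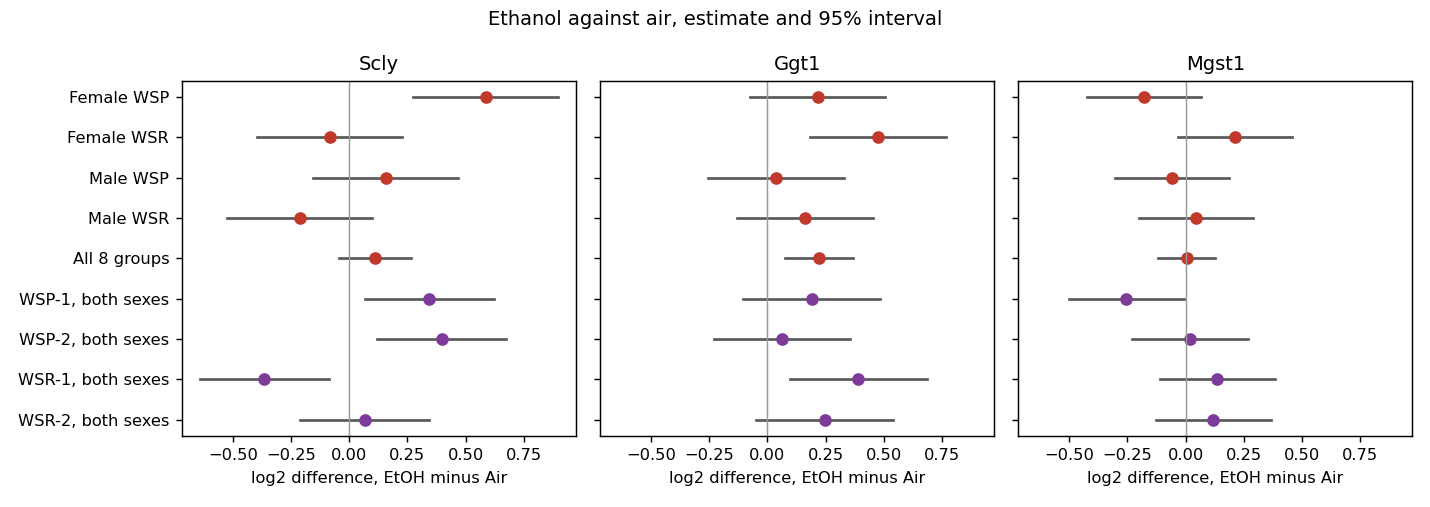
Log2 difference of ethanol minus air for Scly, Ggt1 and Mgst1 with 95% intervals from limma, unadjusted. Red points are the 4 groups and their mean, and purple points are the 4 breeding lines over both sexes. Scly lies at 0.59 in female WSP and at -0.36 in WSR-1, and no difference passed after adjustment over all probes.

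The ethanol response itself was compared between the selections. The WSP response minus the WSR response was 0.52 ± 0.15 for Scly (SE, 95% interval 0.21 to 0.83, adjusted p = 0.16), -0.19 for Ggt1 and -0.25 for Mgst1. Limma called 0 of 3 genes, with 0.24% of all probes called. At an unadjusted p under 0.05, a looser threshold to which that share does not apply, there were 2 genes (Scly and Mgst1). For Scly the sign of the response was positive in WSP of both sexes and negative in WSR of both sexes, but under median scaling the response difference turned to -0.35, and to -0.16 without Female WSP EtOH replicate 1. The female response minus the male response was 0.28 for Scly, 0.24 for Ggt1 and 0.02 for Mgst1, with 0 of 3 called, 0 under an unadjusted p of 0.05 and 0.0% of all probes called.

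Each selection exists in separate breeding lines, so the same differences were taken within each line over both sexes. For Scly they were 0.34 in WSP-1, 0.40 in WSP-2, -0.36 in WSR-1 and 0.07 in WSR-2, with adjusted p-values of 0.44, 0.15, 0.45 and 0.999. On this scale the WSP lines had like values and the WSR lines did not, but under median scaling Scly changed sign in WSP-1 and in WSR-1. Whether the responses of 2 lines of one selection differ was not tested. For Ggt1 they were 0.19, 0.06, 0.39 and 0.25 in the same order, and for Mgst1 -0.25, 0.02, 0.14 and 0.12. Limma called 0 of 3 genes in each line, beside 0.096% of all probes in WSP-1, 0.768% in WSP-2, 0.096% in WSR-1 and 0.0% in WSR-2. Genes with an unadjusted p under 0.05 numbered 2 in WSP-1, 1 in WSP-2, 2 in WSR-1 and 0 in WSR-2. The shares of all probes above do not apply to this looser threshold.

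Over sexes and treatments, Scly averaged 9.06 ± 0.25 in WSP-1, 8.90 ± 0.38 in WSP-2, 8.76 ± 0.29 in WSR-1 and 8.70 ± 0.37 in WSR-2 (SD, n = 8 arrays each). Ggt1 averaged 6.45 ± 0.27, 6.52 ± 0.16, 6.68 ± 0.35 and 6.76 ± 0.18 in that order. Mgst1 averaged 6.03 ± 0.24, 6.13 ± 0.34, 6.13 ± 0.24 and 6.16 ± 0.22. The lines of one selection lay within 1 SD of each other for all 3 genes. WSP-2 minus WSP-1 was -0.15 for Scly, 0.07 for Ggt1 and 0.10 for Mgst1, and WSR-2 minus WSR-1 was -0.06, 0.08 and 0.03. Limma called 0 of 3 genes in both comparisons, beside 0.0% and 0.048% of all probes, and 0 had an unadjusted p under 0.05. In females the Mgst1 spot reached 2 times background on 3 of 4 WSP-2 arrays, 1 of 4 WSP-1 arrays, 0 of 4 WSR-1 arrays and 1 of 4 WSR-2 arrays.

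Between the selections, redox genes were called in males and, for Mgst1, in females. In females 1 of 3 genes was called, beside 12.1% of all probes. Mgst1 averaged 6.27 ± 0.29 in female WSP and 5.95 ± 0.13 in female WSR (SD, n = 8 arrays each), a log2 difference of 0.32 ± 0.085 (SE, limma adjusted p = 0.010). Of the WSP arrays 7 of 8 lay above the WSR mean, and the ranges overlapped, from 5.92 to 6.65 against 5.77 to 6.12. Without background correction the difference was 0.68. The spot was well above background on 4 of these WSP arrays and 1 of these WSR arrays, and against the dimmest signal that could be called in Female WSR Air, Female WSP Air was at least 1.00-fold higher. The call was lost without replicate 3 (0.21, adjusted p = 0.15) and under median scaling (0.17, adjusted p = 0.16). The raw mean intensities of the spot, 23.8 and 22.9, hardly differed between these groups.

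In females Ggt1 had a WSP minus WSR difference of -0.13 (adjusted p = 0.46) and Scly one of -0.11 (adjusted p = 0.57). The Ggt1 ranges of the selections overlapped widely, from 6.22 to 6.92 in WSP and from 6.01 to 6.94 in WSR. For Scly they ran from 8.26 to 9.24 in WSP and from 8.48 to 9.22 in WSR. Under median scaling, where the median of all probes lay at -0.10, both passed, at -0.28 and -0.85.

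In males all 3 measured genes were called, beside 58.3% of all probes, so a call there does not set a gene apart. Ggt1 averaged 6.51 ± 0.21 in male WSP and 6.84 ± 0.15 in male WSR (SD, n = 8 each), a log2 difference of -0.33 ± 0.10 (SE, limma adjusted p = 0.0065), and 8 of 8 WSP arrays lay below the WSR mean. Its rank within the array ran from the 75.7th to the 85.9th percentile in male WSP and from the 85.4th to the 88.6th in male WSR. The difference was -2.35 under median scaling, -0.01 and no longer called with cyclic loess, and -0.28 without replicate 3 (adjusted p = 0.059). Mgst1 averaged 5.90 ± 0.14 in male WSP and 6.35 ± 0.05 in male WSR, a difference of -0.45 ± 0.085 (adjusted p = 3.47e-05), and the ranges did not overlap. For neither gene is a fold given here, because the lowest normalized signal that passed 2 times background on male WSP arrays, 6.98 in air and 7.11 after ethanol on average, lay above the male WSR means.

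Scly went the other way in males. It averaged 9.13 ± 0.17 in male WSP and 8.51 ± 0.25 in male WSR, a log2 difference of 0.61 ± 0.11 (SE, limma adjusted p = 1.23e-05), and 8 of 8 WSP arrays lay above the WSR mean. Its raw intensity, however, ran from 156 to 222 on male WSP arrays and from 782 to 1142 on male WSR arrays. Under median scaling the difference was -2.0 (adjusted p = 1.60e-11), where 1 probe was called higher and 1804 lower in WSP and the median of all probes lay at -0.69; the main normalization called 508 higher and 708 lower. The direction of Scly between the selections in males therefore depends on the scaling. Of the 8 spots that border the Scly spot, 4 passed 2 times background on most arrays. The brightest, at a median of 79.8 times background, was no gene spot and was not fitted. The others, all expressed sequence tags, had WSP minus WSR differences of 0.39, 0.61 and 0.38 in males on the normalized scale, all of them called, and -0.15, -0.30 and -0.32 in females. Their females minus males changes were -0.54, -0.91 and -0.70, beside -0.73 for Scly. The dimmer bordering tags that were fitted passed 2 times background on 16 and 6 arrays. They had 0.22 and 0.12 in males, but 0.48 and 0.27 in females, all called. Their females minus males changes were 0.26 and 0.15, opposite in sign to that of Scly. Log2 intensities over the 32 arrays, which share brightness, had r of 0.98 with Scly for the brightest bordering spot. For the others that passed on most arrays r was 0.98, 0.83 and 0.87, in the order given above. For the dimmer fitted tags it was 0.77 and 0.63. The part of neighbouring spots in the Scly values was not tested.

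Over both sexes and treatments, 2 of 3 genes were called between the selections, beside 54.4% of all probes. Ggt1 was lower in WSP by a log2 difference of -0.23 ± 0.071 (SE, limma adjusted p = 0.0075, 15 of 16 WSP arrays below the WSR mean), and Scly was higher by 0.25 ± 0.077 (adjusted p = 0.0068, 13 of 16 arrays above it). Mgst1 had -0.06. With cyclic loess neither call held, at -0.03 and 0.06, and under median scaling Scly turned to -1.42. The Ggt1 call was lost without replicate 3 (-0.18, adjusted p = 0.096) and the Scly call without replicate 2 (0.21, adjusted p = 0.059). In air alone 0 of 3 genes were called, beside 39.8% of all probes, and 0 had an unadjusted p under 0.05; Ggt1 had -0.13, Mgst1 0.06 and Scly -0.01.

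Sexes were compared within each selection. In WSP, Mgst1 was the 1 of 3 genes called, beside 18.7% of all probes, with a fitted female minus male difference of 0.37 ± 0.085 log2 units (SE, limma adjusted p = 0.0016). The male signal in it was not well above background on any array, and the lowest signal that could be called there lay above the female means of 6.36 and 6.18, so no fold is given. Scly had -0.29 (adjusted p = 0.058, or 0.044 with a replicate block) and Ggt1 -0.04. In WSR all 3 genes were called, beside 60.2% of all probes, and brightness and sex cannot be told apart there. Ggt1 was lower in females by -0.24 ± 0.10 (adjusted p = 0.045) and Mgst1 by -0.40 ± 0.085 (adjusted p = 0.00017, with 1 of 8 female arrays above 2 times background), while Scly was higher by 0.44 ± 0.11 (adjusted p = 0.00091). The Ggt1 call was lost without any one of replicates 1 to 4, without Female WSR Air replicate 1 alone (-0.18, adjusted p = 0.12) and with no filter, and with cyclic loess its difference was 0.03. Scly turned under median scaling, to -0.47, where the median of all probes lay at -0.40.

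The line difference of Mgst1 had opposite signs in the sexes, and a comparison chosen after these values were seen tested that change. The WSP minus WSR difference in females minus that in males was 0.77 ± 0.12 for Mgst1 (SE, limma adjusted p = 3.46e-06), -0.73 ± 0.15 for Scly (adjusted p = 0.00019) and 0.19 ± 0.14 for Ggt1 (adjusted p = 0.27). For Mgst1 the male WSP and Female WSR Air values in it were not well above background on any array, so its size rests in part on background signal. It was called for 2 of the 3 genes, beside 53.1% of all probes. The change also rests on the male WSR arrays, which held the most detected spots. For Mgst1 it was 0.44 with cyclic loess, 1.47 under median scaling and 1.70 without background correction, all of them called. For Scly it was -0.60 with cyclic loess and turned to 1.14 under median scaling, where the median of all probes lay at 0.62.

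**Figure D4:**
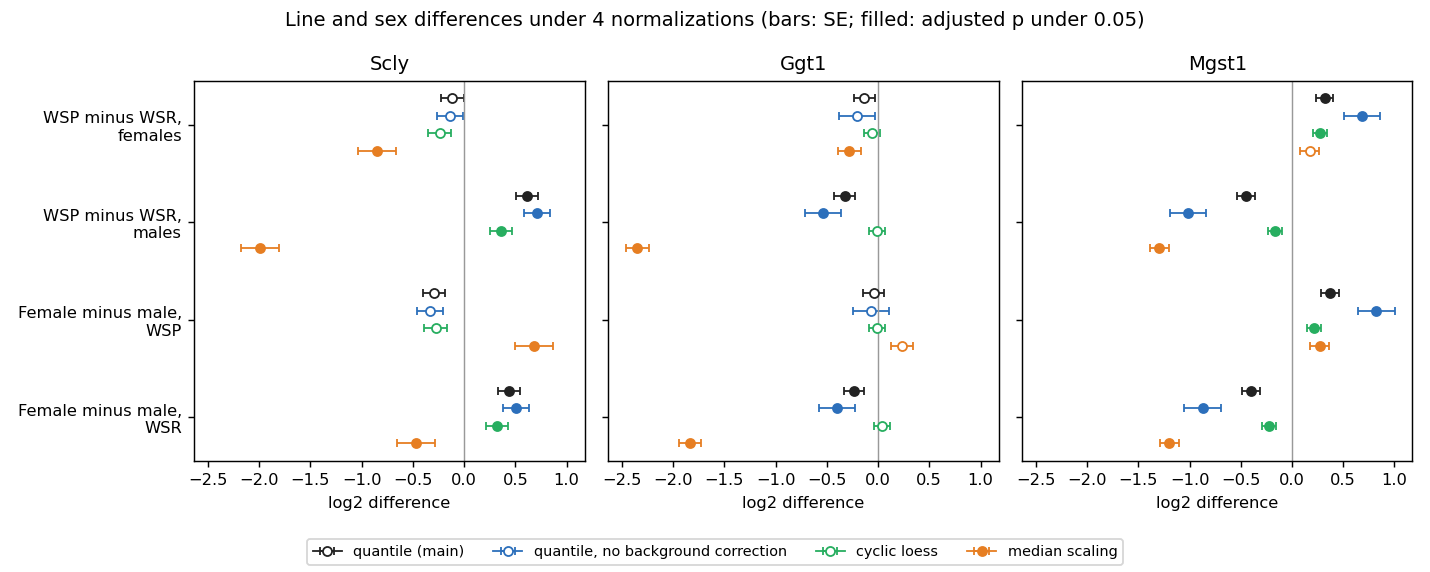
Log2 differences between selections and between sexes for Scly, Ggt1 and Mgst1 under 4 ways of normalizing the arrays. Bars give the SE, and filled points have an adjusted p under 0.05. Scly changes sign between quantile (0.61) and median scaling (-2.0) in males, Ggt1 in males shrinks to -0.01 with cyclic loess, and Mgst1 keeps its sign in all 4 comparisons and under all 4 normalizations.

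Other genes of the redox pathway were taken from a list of titles, which found 14 spots, 5 of them measured: carbonyl reductase, selenoprotein P, transketolase, isocitrate dehydrogenase 3 gamma and ferritin light chain 1. None of the 5 was called for ethanol in the 4 groups. Ferritin light chain 1, an iron store, had the widest value in female WSP at 0.41 (adjusted p = 0.14). Between the selections in males 3 of 5 were called, beside 58.3% of all probes, so the count does not set these genes apart. Carbonyl reductase, an enzyme that reduces reactive carbonyls, was lower by -0.84 ± 0.13 (SE, limma adjusted p = 1.13e-06) and had 0.03 in females. Selenoprotein P, the carrier that brings selenium to brain, reached 2 times background on 7 arrays, all of them male WSR, and so passed the filter through that group alone. Its difference is not given. Isocitrate dehydrogenase 3 gamma reached 2 times background on 5 arrays, also all male WSR, and passed in the same way. The count of 3 of 5 in males holds such genes and is no support for a line difference. Transketolase, of the pentose phosphate pathway that yields NADPH, ran from 1.15 to 1.52 times background on male WSP arrays, 0 of 8 above 2, and from 2.65 to 4.67 on male WSR arrays. In females it passed 2 times background on 3 arrays, all of Female WSR EtOH, and no difference is given for it either. The spot titled antioxidant enzyme AOE372, an older name of the peroxiredoxin Prdx4, passed 2 times background on 0 arrays.

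Of the 8 measured cell type markers, 0 were called for ethanol in the 4 groups and 0 between the selections in females, where Mgst1 and 12.1% of all probes were called. In males 6 of 8 were called between the selections, 3 higher and 3 lower in WSP, beside 58.3% of all probes. The summed intensity of the 8 markers ran from 32.6 to 50.1 times background on male WSP arrays and from 221 to 377 on male WSR arrays, and from 33.9 to 204 on female WSP and 76.5 to 181 on female WSR arrays. Endoglin, a marker of vessels, was the 1 marker called for the WSP minus WSR response to ethanol, where it was higher and 0.24% of all probes were called. In that comparison Scly had 0.52 and Ggt1 -0.19, neither of them called. Endoglin was also the 1 marker called for ethanol in breeding line WSP-2, where it was higher and 0.768% of all probes were called. The part of these markers in the redox values was not tested.

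Patterns over the 32 arrays were compared with those of the other 451 measured spots with a gene title. Those most like Ggt1 were macrophage expressed gene 1 (Pearson r = 0.67), galactokinase (0.66) and Fus2 (0.66). With group means removed these fell to 0.48, 0.45 and 0.44. Those most like Scly were actin-crosslinking protein 7 (0.73), lysosomal membrane glycoprotein 1 (0.71) and phosphodiesterase I/nucleotide pyrophosphatase 2 (0.66), and with group means removed 0.52, 0.72 and 0.26. Among the redox genes r was 0.24 for Ggt1 with Mgst1, -0.26 for Ggt1 with Scly and -0.64 for Mgst1 with Scly, and -0.05, -0.02 and -0.24 with group means removed. All of these share arrays and their brightness, and they describe these 32 arrays only.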

How the data were processed

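Single-channel cDNA arrays of 33P-labelled prefrontal cortex RNA were used. Each deposited array file gives 1 spot intensity per row and 1 background intensity per array, between 6.96 and 30.3, not subtracted, per the file headers. The authors' deposited table holds scores, each array centred and scaled on its own. Within each array the scores followed a straight line of the log2 intensity to within 1.07e-06. Their medians ran from 7.29 to 8.55, and 0 columns of the table had no sample. The scanner and its software were not given in the sources used here.

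From the intensities, normexp correction (offset 50, which compresses differences of dim spots), log2 and quantile normalization over 4696 gene spots of 5355 were computed, and 2084 spots that reached 2 times background on 4 or more arrays were kept. Limma 3.58.1 in R 4.3.3 fitted 1 mean per group, or per sex, breeding line and treatment, with an intensity trend and Benjamini-Hochberg adjustment over all kept spots; an adjusted p under 0.05 is a call. The script was tested on simulated data. Python 3.11.15, pandas 2.3.3 and matplotlib 3.10.9 made the tables and figures.

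Every spot found by the title rule was named, and for Ggt1 and Scly the 3 titled spots of highest correlation. Members and lists were chosen with earlier results of these data known. The symbols Txn2, Gstz1, Mgst1 and Gstt2 were assigned by hand from titles; clone sequences were not used here. Alternatives were cyclic loess, median scaling, no filter, no background correction, array weights, no intensity trend, the authors' scores, blocks on replicate or breeding line, fewer arrays in the fit and leaving out replicates.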

Additional observations from a re-analysis of the deposited data

Results flagged for a closer look

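In Female WSR Air, Scly stood at 9.22 in replicate 1, apart from the other arrays of its group, which lay between 8.90 and 8.93. In all, 24 groups of 4 values were examined in this way, and chance gives such a gap in about 1 in 20 of them. The same array was the single one on which Txn2 and Gstz1 passed 2 times background.

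The WSP minus WSR difference of Mgst1 differed between females and males by 0.77 ± 0.12 (SE, log2, adjusted p = 3.46e-06 in limma), being 0.32 in females and -0.45 in males. Its male WSP and Female WSR Air signals were not well above background on any array. That of Scly differed by -0.73 ± 0.15 (adjusted p = 0.00019), being -0.11 in females and 0.61 in males, and it turned to 1.14 under median scaling. This comparison was chosen after these values were seen, and 53.1% of all probes were called in it.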

How the results depend on the processing

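Among log2 differences of Scly, Ggt1 and Mgst1 under all alternatives, 665 kept their direction and their side of the threshold, 47 turned, 21 passed that had not and 14 no longer passed; counts of called genes stayed within 1.5 times in 233 cases and moved in 18. Of called differences 163 kept their call, 14 lost it and 5 turned, 4 of these for Scly under median scaling and 1 for Ggt1 with cyclic loess. Where a result did not hold, the cause was not tested. No result moved by leaving background correction out lost its call or its direction. With no filter, where more probes were fitted and tested, the Ggt1 sex difference in WSR missed the threshold at the same size. Depth is set by signal over background: Mgst1 and Ggt1 in male WSP, and Mgst1 in Female WSR Air, were not well above background on any array.

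Under median scaling, Scly turned to -0.14 in female WSP, -0.036 in male WSP, 0.38 in female WSR and 0.15 in male WSR for ethanol, to -0.35 for the WSP minus WSR response, and to -0.35 in WSP-1 and 0.093 in WSR-1. It turned to -1.42 between the selections over both treatments, -2.0 in males, 0.68 between sexes in WSP, -0.47 in WSR, 0.25 for WSP-2 minus WSP-1, 0.16 for WSR-2 minus WSR-1 and 1.14 for the change of the line difference between sexes. Ggt1 turned to -0.066 for ethanol in female WSP, -0.028 in male WSP and -0.11 in WSP-2, to -0.13 for the female minus male response and to 0.23 between sexes in WSP. Mgst1 turned to -0.20 for the female minus male response, -0.36 between the selections in air and -0.13 in WSP-2. Called genes then numbered 1 for ethanol in male WSR (6.86% of all probes called under this scaling), 1 in WSR-1 (13.1%), 1 in WSR-2 (3.17%), 2 for the WSP minus WSR response (27.4%), 3 between the selections in air (74.3%), 2 in females (36.4%) and 2 between sexes in WSP (41.3%). Without Female WSP EtOH replicate 1, median scaling gave Scly 0.24 for ethanol in female WSP and -0.16 for the WSP minus WSR response, where 2 genes and 20.6% of all probes were called.

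With cyclic loess, Ggt1 turned to 0.034 between sexes in WSR, -0.036 for WSP-2 minus WSP-1, -0.10 for WSR-2 minus WSR-1 and -0.044 for the change of the line difference between sexes. Mgst1 turned to -0.10 for the female minus male response, 0.0496 between the selections and -0.064 in WSP-2. Called genes numbered 1 for ethanol in female WSP (1.01% of all probes) and 0 between the selections over both treatments (57.0%), where the 3 genes were tested by limma. In the authors' deposited scores, Ggt1 turned to -0.069 for ethanol in male WSP, -0.11 in WSP-2 and 0.60 between sexes in WSP, Mgst1 to -0.18 for the female minus male response and -0.36 between the selections in air, and Scly to 0.40 in air. Called genes numbered 1 for ethanol in female WSP (3.42% of all probes), 1 between the selections in air (48.3%) and 3 between sexes in WSP (39.4%). Mgst1 could not be fitted by breeding line there, because too few of its scores were present.

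Leaving out a replicate number, Female WSR Air replicate 1 or Female WSP EtOH replicate 1, Ggt1 ran from -0.080 to 0.089 for ethanol in male WSP and from -0.059 to 0.015 between sexes in WSP. Mgst1 ran from -0.017 to 0.051 for ethanol over all groups, from -0.10 to 0.011 in male WSP, from -0.019 to 0.061 for the female minus male response and from -0.022 to 0.12 between the selections in air. Scly ran from -0.19 to 0.026 for ethanol in female WSR and from -0.061 to 0.038 between the selections in air. Called genes ran from 1 to 2 between the selections over both treatments, from 0 to 1 in females and from 1 to 2 between sexes in WSP. Leaving out these single arrays, also with median scaling, was chosen after seeing the data. The replicate numbers share a breeding line but mark no shared animal. Of 16 pairs of air and ethanol arrays with one number, 5 had deviations correlated over 0.1 (from -0.10 to 0.41). Among the 4 numbers, 17 of 32 arrays correlated best with their own. Whether arrays of one number share a batch was not tested. With a replicate block the called genes between sexes in WSP numbered 2 in place of 1, and it changed no other call of these 3 genes.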

Other observations

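Of the 4 expressed sequence tags whose titles liken them to glutathione enzymes, 1 was measured, a tag highly similar to glutathione S-transferase P. It passed 2 times background on 6 arrays, 2 of Male WSR Air and 4 of Male WSR EtOH, and reached 3.91 times background at most. It passed the filter through male WSR alone, and its line difference is not given. The tags likened to glutathione reductase, to a mitochondrial glutathione S-transferase and to hydroxyacylglutathione hydrolase passed 2 times background on 0 arrays.

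Among the spots bordering Mgst1, 2 passed 2 times background on all 32 arrays, with medians of 50.4 and 20.2 times background. On the normalized scale the first had a WSP minus WSR difference of -0.08 in females and 0.30 in males, and the other -0.04 and -0.30, where Mgst1 had 0.32 and -0.45. Their female minus male differences in WSR were 0.44 and -0.36, both called, where Mgst1 had -0.40. The log2 intensities of these neighbours over the 32 arrays, which share brightness, had r of 0.79 and 0.91 with Mgst1. Their part in the Mgst1 values was not tested.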
